A study of Homo sapiens with 3 samples.

Results

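The regions described here are TRRAP binding sites at promoters of protein-coding genes where no CHD8 peak touched the TRRAP peak. They were chosen by the peak calls themselves: a TRRAP peak on chromosomes 1 to 22 and X was taken if it came within 1 kb of the canonical start of a protein-coding gene (the promoter window) and had no base in common with any CHD8 peak. The rule selected 476 peaks of 7877 TRRAP promoter peaks (6.04%, 95% Wilson interval 5.54 to 6.59), out of 14735 TRRAP and 23393 CHD8 peaks in all. The other 7401 TRRAP promoter peaks, which share at least 1 base with a CHD8 peak, are the comparison and are called shared peaks below.

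TRRAP is a very large pseudokinase without catalytic activity. It serves as the docking subunit of the SAGA and TIP60 (NuA4) histone acetyltransferase complexes, through which activators such as MYC and E2F1 bring acetylation to promoters. CHD8 is an ATP-dependent chromatin remodeler of the CHD family that is found at many active promoters and is among the genes most often mutated in autism.

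The study profiled both proteins by ChIP-seq in neural stem cells of wild-type genotype, derived from the established human embryonic stem cell line H9 and grown with EGF and FGF. For every group the crosslinkers were disuccinimidyl glutarate at 2 mM, followed by formaldehyde at 1%, and chromatin was pulled down with control IgG or an antibody to TRRAP or CHD8. There was 1 library per antibody from this 1 cell line, so no difference below has a replicate check and no p-value is given. Intervals on shares are Wilson and intervals on differences are Newcombe, both at 95%. They cover counting error only, and the IgG library and the number of reads behind each list were not analysed here.

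Among the strongest selected peaks in promoters without any CHD8 peak, 7 sequences, limited to those with no annotated exon in the stretch, are shown first because they carry the plainest form of the pattern. Each sequence runs from 60 bp before to 60 bp after the TRRAP summit on GRCh38, 5′ to 3′ on the strand of the gene. Capitals mark exact matches to any of 13 transcription factor words that were searched on both strands and that are spelled out with their results below.
WWC3, chrX:10015098-10015218, + strand: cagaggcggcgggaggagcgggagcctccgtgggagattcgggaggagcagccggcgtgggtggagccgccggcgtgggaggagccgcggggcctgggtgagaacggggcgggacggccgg
IGSF9, chr1:159945758-159945878, - strand: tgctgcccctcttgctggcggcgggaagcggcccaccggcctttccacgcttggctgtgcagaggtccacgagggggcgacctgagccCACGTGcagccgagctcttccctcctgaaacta
PARD6G, chr18:80247609-80247729, - strand: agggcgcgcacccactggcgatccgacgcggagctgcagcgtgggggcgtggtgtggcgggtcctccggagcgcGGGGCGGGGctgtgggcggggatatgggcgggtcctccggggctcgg
B4GALT2, chr1:43979652-43979772, + strand: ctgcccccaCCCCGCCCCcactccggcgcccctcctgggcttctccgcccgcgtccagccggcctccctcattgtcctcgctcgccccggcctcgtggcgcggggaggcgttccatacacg
CYB5A, chr18:74292168-74292288, - strand: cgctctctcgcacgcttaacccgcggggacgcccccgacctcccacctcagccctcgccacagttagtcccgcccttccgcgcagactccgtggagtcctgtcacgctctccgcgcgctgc
LBH, chr2:30231397-30231517, + strand: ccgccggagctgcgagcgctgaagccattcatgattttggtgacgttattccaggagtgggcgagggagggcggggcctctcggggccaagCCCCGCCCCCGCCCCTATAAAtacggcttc
KLF15, chr3:126356543-126356663, - strand: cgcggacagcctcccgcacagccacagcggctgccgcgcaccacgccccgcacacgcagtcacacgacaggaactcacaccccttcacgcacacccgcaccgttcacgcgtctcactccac
For comparison, the strongest shared peaks that met the same exon limit were the following.
AHCYL2, chr7:129224793-129224913, + strand: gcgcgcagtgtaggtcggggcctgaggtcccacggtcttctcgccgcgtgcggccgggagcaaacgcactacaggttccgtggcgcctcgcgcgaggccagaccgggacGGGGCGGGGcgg
JUND, chr19:18281891-18282011, - strand: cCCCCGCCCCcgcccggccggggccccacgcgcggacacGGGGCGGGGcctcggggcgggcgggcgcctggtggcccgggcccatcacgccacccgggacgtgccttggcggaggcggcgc
SCAF1, chr19:49641893-49642013, + strand: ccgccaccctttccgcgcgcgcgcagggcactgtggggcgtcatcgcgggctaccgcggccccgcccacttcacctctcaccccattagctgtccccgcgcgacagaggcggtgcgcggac
All 7 stretches from the selected peaks were rich in G and C, from 65.3% at LBH to 78.5% at WWC3 and PARD6G, and held 9 to 17 CpG dinucleotides each. The stretches at the shared peaks lay between 74.4% and 87.6% GC, with 18 to 20 CpG. These shared peaks had TRRAP folds over background of 58.8 to 61.7, and the 7 selected peaks had folds of 12.0 to 16.8. Over all peaks the order was the other way. Median GC within 100 bp of the summit was 73.13% for selected and 70.65% for shared peaks. An SP word was present at PARD6G, B4GALT2 and LBH and an E-box at IGSF9. At LBH the SP matches ran directly into a TATA word. The stretches at WWC3, CYB5A and KLF15 held no searched word.

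The selected peaks were of 2 kinds that differed in where CHD8 was. In 276 of them (58.0%, 53.5 to 62.3) a CHD8 peak lay elsewhere in the same promoter window without touching the TRRAP peak. In the other 200 no CHD8 peak reached the promoter window at all. The gap to the nearest CHD8 peak had a median of 143 bp in the first kind (25th to 75th percentile 61.75 to 294 bp), and 110 of the 276 were within 100 bp. Gaps in the second kind had a median of 36109 bp (18406 to 99860 bp), with 165 of 200 beyond 10 kb and 50 beyond 100 kb.

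**Figure D1:**
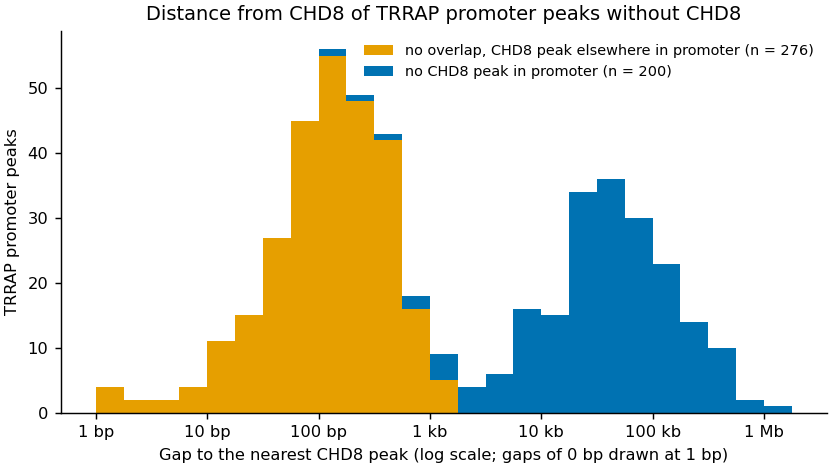
Number of selected TRRAP promoter peaks (vertical axis) by gap in bases to the nearest CHD8 peak (horizontal axis, log scale), stacked by whether a CHD8 peak lay elsewhere in the promoter (orange, 276 peaks) or not (blue, 200 peaks). The orange peaks have a median gap of 143 bp and the blue peaks of 36109 bp, and 5 of the blue peaks have a gap within 1 kb.

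Counted by gene, 471 of the 19970 with a coding start (2.36%) had a selected peak in their window, beside 6697 (33.5%) with a shared peak. A TRRAP peak with no CHD8 peak anywhere in the window was found at 198 genes (0.991% of all, and 2.83% of the 7000 genes with TRRAP), and 6.73% of those 7000 had a selected peak. These shares follow from the rule and are given as the background for the gene lists below. By nearest start, the 476 peaks belonged to 447 genes. Of these, 27 genes had more than 1 selected peak and none had more than 3. Both a selected and a shared TRRAP peak were present at 168 genes.

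STEAP2, a metalloreductase of the endosomal system, had the strongest peak in a promoter without CHD8. It lay at chr7:90211598-90211914 with its summit 33 bp downstream of the start, in the UTR part of exon 1, and its TRRAP fold was 22.5 (the fold over background given by the authors, as are all folds below). The nearest CHD8 peak was 33010 bp away. For WWC3, a WW-domain protein linked to Hippo signalling, the peak at chrX:10014994-10015264 had a fold of 16.8 and a gap of 86631 bp.

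Peaks of fold 15.8 were present at TIFA, an adaptor in NF-κB signalling (chr4:112285692-112286025, gap 53101 bp), and at PRDX4, a peroxiredoxin of the endoplasmic reticulum (chrX:23667302-23667632, gap 75628 bp). The promoters of IGSF9, a neural immunoglobulin-superfamily protein (chr1:159945727-159945907), and MARCHF4, a membrane ubiquitin ligase (chr2:216372287-216372465), each had a peak of fold 14.9. NECAB2, a neuronal calcium-binding protein, had a peak of fold 13.9 at chr16:83968066-83968458. In 6 of these 7 the nearest CHD8 peak lay on the downstream side of the TRRAP peak, and at WWC3 it lay upstream. Over all 200 peaks of this kind it lay downstream in 93 (46.5%, 39.7 to 53.4). All 7 summits were within 205 bp of the start, and all 7 promoters had a CpG ratio of at least 0.63.

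The largest gaps were at genes of lower TRRAP fold. NETO1, which encodes an auxiliary subunit of glutamate receptors, had an intronic peak at chr18:72867107-72867231 with a fold of 7.69, and the nearest CHD8 peak was 1280483 bp away. PUDP, a pseudouridine phosphatase, had a peak of the same fold at chrX:7147949-7148073 with a gap of 614864 bp. PLCL2, a catalytically inactive relative of phospholipase C, had 2 selected peaks. They had folds of 8.65 at chr3:16884366-16884756 and 6.26 at chr3:16884912-16885161, and gaps of 554347 and 554893 bp.

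Where CHD8 lay elsewhere in the promoter, the strongest peak was at TEX264, a receptor for autophagy of the endoplasmic reticulum. Its TRRAP peak at chr3:51671055-51671424 (fold 24.4) was 460 bp upstream of a narrow CHD8 peak of 157 bp with a CHD8 fold of 7.98. ZDHHC14, a palmitoyltransferase, had the widest selected peak (818 bp at chr6:157380757-157381574, TRRAP fold 21.5), 106 bp from a CHD8 peak of fold 7.10. PAOX, a polyamine oxidase, had a TRRAP fold of 20.6 at chr10:133378862-133379178 and a CHD8 peak of fold 6.66 at a gap of 279 bp.

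ANTXR1, an anthrax toxin receptor (chr2:69012903-69013109), had a TRRAP fold of 15.8 and a CHD8 gap of 118 bp. The peaks at BRI3BP (chr12:124993466-124993734, gap 20 bp) and at GUCY1B1, a subunit of soluble guanylate cyclase (chr4:155759817-155760181, gap 619 bp), both had a TRRAP fold of 14.9. The peak at GUCY1B1 was intronic, 1055 bp downstream of the start, whereas the summits at the other 5 genes lay upstream of it. CHD8 was on either side of TRRAP among these 6: downstream at TEX264, ANTXR1 and BRI3BP, and upstream at ZDHHC14, PAOX and GUCY1B1.

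The CHD8 peaks nearest to these 276 TRRAP peaks had a median width of 370 bp and a median CHD8 fold of 8.43, beside 376 bp and 9.31 over the whole CHD8 list. Those under shared peaks had medians of 770 bp and 13.3. A wider CHD8 peak has more bases with which to meet TRRAP, so this contrast is tied to the rule. In 167 of the 276 (60.5%, 54.6 to 66.1) a further TRRAP peak that does overlap CHD8 lay in the same window. Each peak of this class has a CHD8 peak within 1 kb of the start, which favours the side of the start for TRRAP summits far from it. The counts that follow use the nearest CHD8 peak, which can lie outside the window, as at IRX5. Of 153 TRRAP summits over 100 bp downstream of the start, 135 had the CHD8 summit upstream of them (88.2%, 82.2 to 92.4). Of 83 summits over 100 bp upstream, 67 had it downstream (80.7%, 71.0 to 87.8). The CHD8 summit was closer to the start than the TRRAP summit in 172 of 276 (62.3%, 56.5 to 67.8), and the CHD8 peak covered the start in 135.

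RRM2, the small subunit of ribonucleotide reductase, is one example. Its TRRAP peak at chr2:10121876-10122046 had a summit 809 bp upstream of the start and a fold of 6.26, and a CHD8 peak of 816 bp began 25 bp further downstream. ZNF521, a zinc finger regulator of early neural fate, had selected peaks on both sides of 1 CHD8 peak at chr18:25351515-25352304. Those TRRAP peaks, at chr18:25351039-25351186 and chr18:25352386-25352510, both had a fold of 7.69, with gaps of 328 and 81 bp.

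TRRAP summits of the 2 kinds were placed differently along the promoter. The first kind must have a CHD8 peak in the window that the TRRAP peak does not touch. The nearest CHD8 peak covered the start in 135 of these 276. Where TRRAP lay in the first kind is therefore tied to the selection, and the values are given as a description. Within 100 bp of the start lay 14.5% of summits where CHD8 was elsewhere in the promoter (10.8 to 19.1), 38.0% where there was no CHD8 (31.6 to 44.9) and 41.5% of shared summits (40.4 to 42.7). The first kind was 27.1 percentage points below shared peaks (difference −27.06, interval −30.89 to −22.28). For the second kind the interval of the difference included 0 (−3.55 points, −10.09 to 3.44). That interval excluded 0 with starts of all coding transcripts (−7.33, −13.35 to −1.17). It also excluded 0 with only the CHD8 peaks above the median rank of their list (−3.96, −6.77 to −1.10). Summits over 100 bp downstream of the start made up 55.4%, 28.5% and 25.1% of these classes. The first kind was also more often intronic (46.0%, against 16.5% of the second kind and 20.8% of shared peaks).

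**Figure D2:**
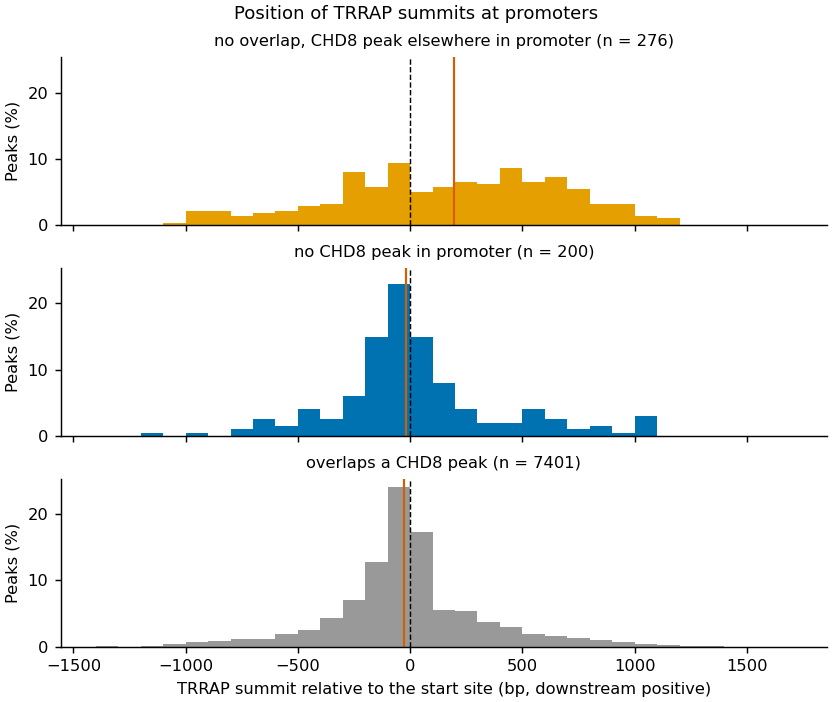
Share of TRRAP peaks (vertical axes, percent of the class) by position of the summit relative to the start in bins of 100 bp (horizontal axis, downstream positive), for selected peaks with CHD8 elsewhere in the promoter (276), selected peaks with no CHD8 in the promoter (200) and shared peaks (7401). The dashed line is the start and the red line the median, which is 197.5 bp downstream in the first class, 20 bp upstream in the second and 27 bp upstream in the third.

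By position, the share of TRRAP promoter peaks without an overlapping CHD8 peak was lowest for summits within 100 bp of the start (3.64%, 116 of 3191) and highest beyond 500 bp downstream (15.6%, 103 of 661). The share in promoters with no CHD8 at all moved less, from 2.26% beyond 500 bp upstream to 3.78% beyond 500 bp downstream. Summits over 500 bp from the start were 38.4% of the first kind, 18.5% of the second and 14.2% of shared peaks.

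The selected peaks were narrower within the TRRAP list than shared peaks and had lower folds. A wider TRRAP peak likewise has more bases with which to meet CHD8, so width is tied to the rule and is given as a description. The median width was 175.5 bp (25th to 75th percentile 138 to 248 bp) against 252 bp (175 to 395 bp), and the median TRRAP fold was 7.21 (6.26 to 8.65) against 8.17 (6.73 to 11). The median −log10 q of the authors was 7.49 against 9.79. The share of peaks above the median fold was 19.6 points lower among selected peaks (difference −19.6, −23.7 to −15.2), and among peaks no wider than the median the difference was −5.16 points (−9.15 to −0.554). With TRRAP promoter peaks divided into 4 groups by width, 11.5% of the narrowest had no overlapping CHD8 peak (230 of 2006), and 1.22% of the widest had none (24 of 1967).

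Peaks in promoters without CHD8 and those with CHD8 nearby had median widths of 176.5 and 174 bp, but the former were stronger. Of the former, 39.0% lay above the median fold of all TRRAP promoter peaks, 8.17, and of the latter 22.8%, a difference of 16.2 points (7.79 to 24.5). Among shared peaks the share was 49.3%. The highest TRRAP folds of the 2 kinds, 22.5 and 24.4, were far below the 81.7 of TMCO3 (chr13:113490537-113491252), the strongest shared peak with a single-copy summit.

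**Figure D3:**
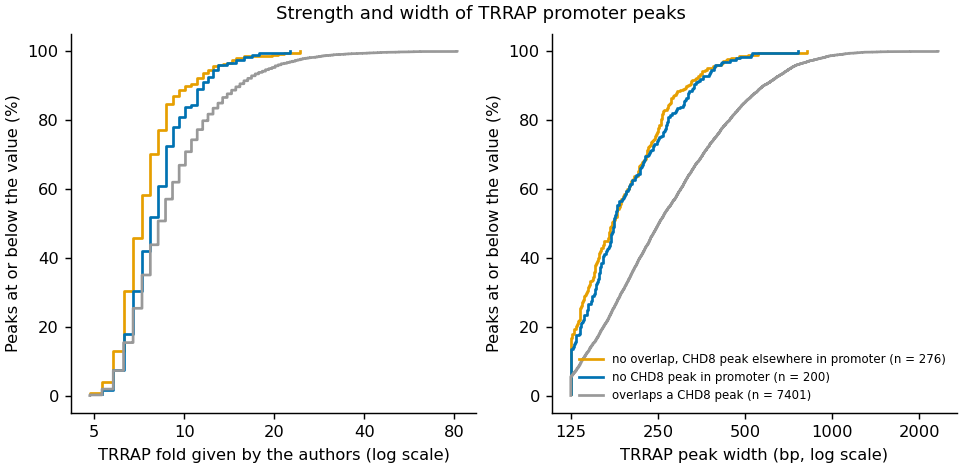
Cumulative share of TRRAP promoter peaks (vertical axes, percent) by the authors' fold (left) and by peak width in bp (right), both on log axes, for selected peaks with CHD8 elsewhere in the promoter (276), selected peaks with no CHD8 in the promoter (200) and shared peaks (7401). Both selected classes run left of the shared peaks in width, and in fold the peaks with no CHD8 (median 7.69) lie between the other two (7.21 and 8.17).

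Most selected peaks lay in CpG-rich promoters, but the share in CpG-poor promoters was higher where there was no CHD8. The CpG ratio is the observed number of CpG over that expected from base composition, counted within 500 bp of the start, and a promoter under 0.5 is called CpG-poor. The ratio describes the sequence around the start, not the TRRAP summit. At CpG-poor promoters some selected summits lay outside that stretch, for example 1051 bp from the start. Of the 200 peaks without CHD8 in the promoter, 22 were at CpG-poor promoters (11%, 7.38 to 16.1), against 3 of 276 with CHD8 nearby (1.09%, 0.370 to 3.15) and 132 of 7401 shared peaks (1.78%). The difference between the second kind and shared peaks was 9.22 points (5.58 to 14.3). It was 5.74 points (2.82 to 10.3) with a promoter window of 500 bp and 2.35 points (1.39 to 3.54) with only the CHD8 peaks above the median rank of their list. Among the 157 TRRAP peaks at CpG-poor promoters, 25 were selected (15.9%, 11 to 22.5), and at ratios of 0.7 to 0.9 the share was 5.21%.

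Of the CpG-poor promoters without CHD8, 3 are named here, chosen after their values were seen. SLC2A3, the neuronal glucose transporter GLUT3, had a fold of 9.12 at chr12:7936190-7936350, a CpG ratio of 0.35 and a CHD8 gap of 2687 bp. APOA1, the main apolipoprotein of high-density lipoprotein (chr11:116837832-116838048), had a fold of 8.17, a ratio of 0.21 and a gap of 46286 bp. ISG15, an interferon-induced ubiquitin-like protein (chr1:1013313-1013487), had a fold of 7.69, a ratio of 0.43 and a gap of 6040 bp.

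Counted over genes, 23 of the 198 genes with TRRAP and no CHD8 were CpG-poor (11.6%, 7.87 to 16.8). The share was 1.97% for the 6802 genes with both proteins, 6.08% for the 4406 genes with CHD8 alone and 60.9% for the 8564 genes with neither. The value for genes with TRRAP and no CHD8 was therefore above both classes with CHD8 and below the unoccupied class. Their median promoter GC was 68.1%, against 65.5% with both proteins, 61.5% with CHD8 alone and 55.4% with neither.

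**Figure D4:**
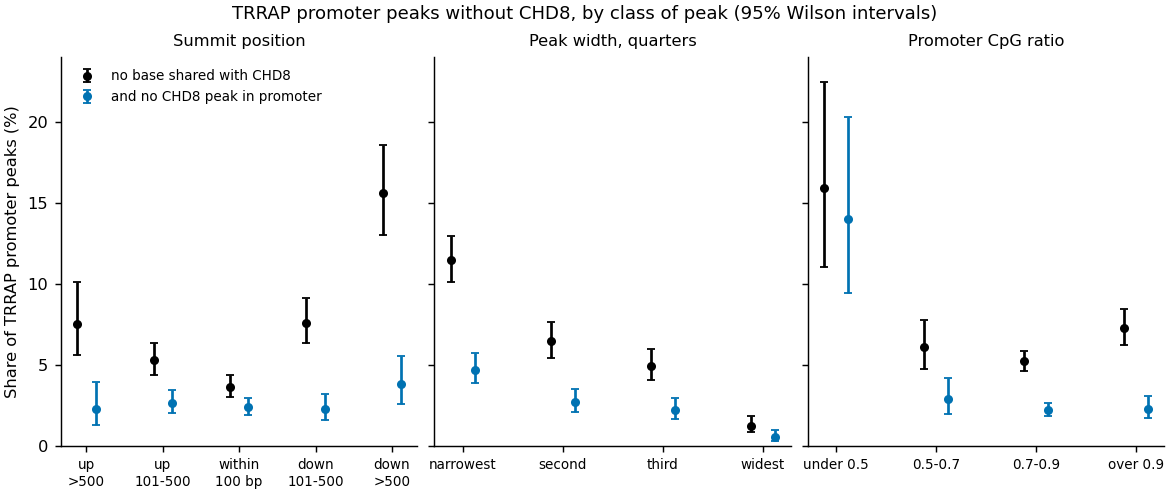
Share of TRRAP promoter peaks (vertical axis, percent, with 95% Wilson intervals) that share no base with CHD8 (black) and that in addition have no CHD8 peak in the promoter (blue), by position of the summit in bp upstream or downstream of the start, by 4 groups of peak width and by CpG ratio of the promoter. The black points run from 3.64% within 100 bp to 15.6% beyond 500 bp downstream and from 11.5% to 1.22% with width, and at CpG ratios under 0.5 both points are highest (15.9% and 14.0%).

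Selected peaks also had fewer neighbouring starts. Coding starts of both strands lay within 1 kb of 3.78% of selected peaks (18 of 476) and 9.90% of shared peaks, a difference of −6.12 points (−7.67 to −3.91). A lncRNA start lay within 1 kb of 11% of the peaks without CHD8 in the promoter, 21.0% of those with CHD8 nearby and 25.3% of shared peaks.

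Sequence was not used by the rule. Median GC within 100 bp of the summit was 73.13% in selected and 70.65% in shared peaks, and the word shares below were not matched for it. Exact words were searched on both strands within 100 bp of the TRRAP summit, and the background is the share of all 19970 coding starts with the word within 100 bp of the start. ETS factors bind CCGGAAGT, YY1 AAGATGGCG and NRF1 GCGCATGCG, and each of these words was found in 1 of the 476 selected peaks (0.210%, 0.0371 to 1.18). Shared peaks held them at 4.07% (ETS), 3.18% (YY1) and 1.81% (NRF1), and all starts at 5.09%, 2.71% and 1.86%. The differences from shared peaks were −3.86 points for ETS (−4.36 to −2.80), −2.97 for YY1 (−3.42 to −1.93) and −1.60 for NRF1 (−1.97 to −0.591).

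With summits within 250 bp of the start only, in both classes, the ETS difference was −5.56 points, the YY1 difference −3.95 and the NRF1 difference −1.87, whose interval included 0 (−2.46 to 0.223). The interval of the NRF1 difference also included 0 with a CHD8 gap of up to 500 bp counted as overlap (−1.30), with 50% of the shorter peak shared (−0.807), with TRRAP peaks above the median rank (−1.89) and with CHD8 peaks above it (−0.597). For YY1 it included 0 with TRRAP peaks above the median rank (−2.35). The 3 matches are printed with 9 bases on each side, on the strand of the gene, with the word or its reverse complement in capitals, in the order ETS, YY1 and NRF1.
LFNG, chr7:2518828-2518853, + strand: cccttggccACTTCCGGgcccctcgc
SLC2A4RG, chr20:63740079-63740105, + strand: ctcgctgcaAAGATGGCGtcagtgctg
NR2C2AP, chr19:19203415-19203441, - strand: attacaacaCGCATGCGCcaagcccac
LFNG is a glycosyltransferase that modifies Notch receptors, and its TRRAP peak (fold 7.21) lay 918 bp upstream of the start and 89 bp from a CHD8 peak. SLC2A4RG, a transcriptional regulator despite its transporter-like symbol, had a fold of 14.4 and a CHD8 gap of 274 bp. At NR2C2AP, a cofactor of a nuclear receptor, the peak had a fold of 7.69 and no CHD8 peak within 10 kb (gap 10285 bp).

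The CCAAT word of NFY was also less frequent, in 11.6% of selected (8.99 to 14.7), 16.3% of shared peaks and 25.2% of all starts (difference −4.70 points, −7.41 to −1.41). The interval included 0 with summits within 250 bp of the start (−3.49, −7.66 to 1.84) and with CHD8 peaks above the median rank (−1.10, −2.96 to 0.865). The GC-box GGGGCGGGG of SP and KLF factors differed little over all selected peaks (19.7% against 21.2%, difference −1.47 points, −4.93 to 2.46). It was present in 26.5% of peaks without CHD8 in the promoter (20.9 to 33.0) and in 14.9% of those with CHD8 nearby (11.1 to 19.5). With summits within 250 bp of the start only, the SP difference was 6.43 points (0.645 to 12.9). Its sign depended on the setting, and it was above 0 in 6 of 14 alternatives.

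CACGTG, the E-box bound by MYC and MAX, was found in 8.19% of selected (6.05 to 11) and 8.63% of shared peaks, both above the 5.67% of all starts. The difference was −0.441 points, with an interval from −2.68 to 2.44, and it was above 0 in 2 of 14 alternatives. The E2F words TTTCCCGC and TTTGGCGC were present in 2.52% and 3.05%, against 1.90% of all starts. The shares of selected and shared peaks were 1.26% and 2.41% for the CRE word TGACGTCA and 2.52% and 1.42% for the TATA word TATAAA. They were 1.68% and 1.32% for the AP-1 word TGAGTCA, and 0.420% and 0.297% for the CTCF word AGGTGGCAG. They were 1.05% and 1.45% for the BANP word CTCGCGAG, and 1.05% and 0.446% for the OCT word ATGCAAAT. All starts held the TATA word in 6.68%, and the other 5 words in 0.466% to 2.12%.

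**Figure D5:**
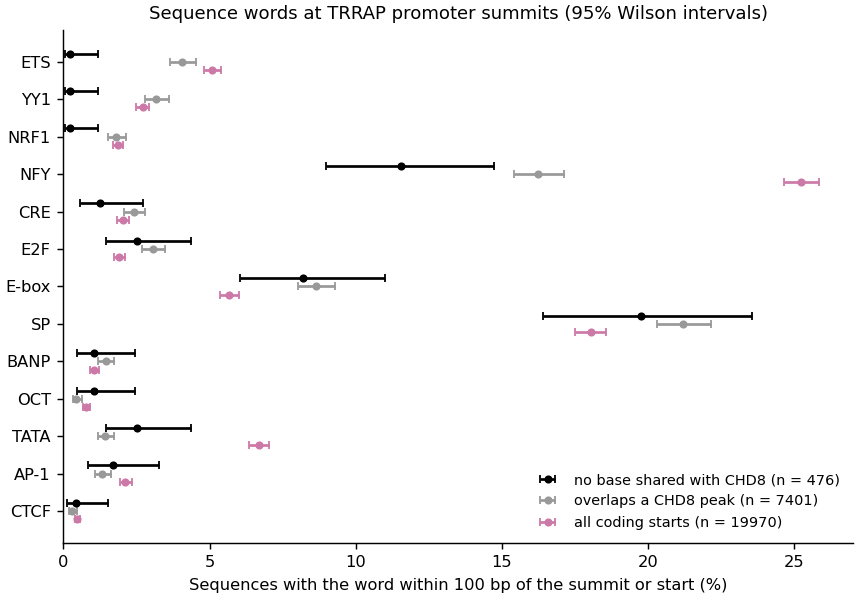
Share of sequences (horizontal axis, percent, with 95% Wilson intervals) that hold each of 13 words within 100 bp of the TRRAP summit, for selected (black, 476) and shared peaks (grey, 7401), or within 100 bp of the start for all coding starts (pink, 19970). The black points for ETS, YY1 and NRF1 stand at 0.210%, left of the other classes, while those for the E-box and SP lie close to the shared peaks.

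Gene lists were read against the background of 2.36% of coding genes with a selected peak and 0.991% with TRRAP and no CHD8. Of 65 E2F and cell cycle genes, 4 had a selected peak (6.15%) and 47 a shared one (72.3%). At 3 of the 4, CHD8 lay elsewhere in the promoter. These were RRM2, E2F1 itself and POLE, the catalytic subunit of DNA polymerase epsilon, whose peak is nearer to the start of its neighbour PXMP2. The exception was MKI67, which encodes the proliferation antigen Ki-67. Its TRRAP peak at chr10:128126359-128126618 had a fold of 8.17 and a summit 19 bp upstream of the start, and the nearest CHD8 peak was 337821 bp away.

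E2F1 had the weakest of these peaks, at a TRRAP fold of 4.82 (chr20:33685361-33685496), 979 bp downstream of the start and 780 bp from a CHD8 peak. That fold was the lowest of the TRRAP list, and by −log10 q the peak ranked 14730 of 14735. The peaks at RRM2 and POLE ranked 13034 and 13112, also near the threshold, and the peak at MKI67 ranked 7619. Of 50 MYC target genes, 4 had a selected peak (8.00%) and 38 a shared one. ODC1 and IMPDH2, enzymes of polyamine and guanine nucleotide synthesis, had CHD8 at gaps of 8 and 64 bp. SLC19A1 and TERT had no CHD8 peak in the promoter.

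SLC19A1, the reduced folate carrier, had 2 selected peaks, of fold 12.9 at chr21:45542358-45542626 and 6.73 at chr21:45541791-45542206, and the nearest CHD8 peak was 100475 bp away. TERT, the catalytic subunit of telomerase, had a peak of fold 5.78 at chr5:1295064-1295191, 30 bp upstream of the start, with an E-box and an SP word within 100 bp of the summit. Selected peaks at these MYC target genes ranked from 2445 (SLC19A1) to 14264 (TERT) of the 14735 TRRAP peaks. Read against genes with any TRRAP promoter peak, of which 6.73% had a selected peak, the shares were 8.33% for the E2F list (4 of 48) and 10% for the MYC list (4 of 40), and each rests on 4 genes.

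Of 27 WNT pathway and cadherin genes, 3 had a selected peak (11.1%, or 18.8% of the 16 with any TRRAP promoter peak). AXIN1, a scaffold of the β-catenin destruction complex, had a fold of 11.5 at chr16:353132-353294 and a CHD8 gap of 17032 bp. WNT7A, a ligand expressed in neural progenitors, had 2 peaks of fold 8.17 and 7.69 (chr3:13879949-13880073 and chr3:13880649-13880778), 11716 and 11011 bp from CHD8. LEF1, a transcription factor of the pathway, had a peak of fold 6.26 at chr4:108168873-108169024, 12 bp from a CHD8 peak.

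Of 45 synaptic and neuronal genes, 1 had a selected peak (2.22%, or 9.09% of the 11 with any TRRAP promoter peak). This was GRIA2, an AMPA receptor subunit. It had a fold of 12.0 at chr4:157220359-157220599, 249 bp upstream of the start, and a small CHD8 peak (fold 5.77) stood 2000 bp downstream, outside the promoter window. Of 114 homeobox and paired-box genes, NKX6-2 and IRX5 had a selected peak (1.75%, or 11.1% of the 18 with any TRRAP promoter peak). Each had CHD8 elsewhere in the promoter. Of all genes with a TRRAP promoter peak, 6.73% had a selected peak. The WNT, synaptic and homeobox counts are too small to set these lists apart from that share.

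Genes with solute carrier symbols held 14 of 373 genes with a selected peak (3.75%, or 12.6% of the 111 with any TRRAP promoter peak, SLC2A4RG included, which is no carrier). Of these, 9 had no CHD8 in the promoter (2.41%, against 0.991% of all coding genes): SLC12A7, SLC18A3, SLC19A1, SLC25A45, SLC29A4, SLC2A3, SLC30A4, SLC66A2 and SLC6A8. Their strongest TRRAP folds ran from 6.26 at SLC29A4 and SLC30A4 to 12.9 at SLC19A1. Their gaps to CHD8 ran from 1768 bp at SLC6A8 to 121278 bp at SLC12A7. SLC18A3, the vesicular acetylcholine transporter, had a fold of 8.65 at chr10:49610140-49610327 and a gap of 69132 bp. The shares for solute carrier symbols rest on 14 and 9 genes, and their difference from the background was not tested.

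Of 515 zinc finger genes with ZNF symbols, 9 had a selected peak (1.75%, or 3.98% of the 226 with TRRAP) and 2, ZNF330 and ZNF765, had TRRAP without CHD8 (0.388%), whereas 432 had a CHD8 promoter peak. Counts of 9 and 2 are too small to set these genes apart from the background. No selected peak was found at 19 TIP60 complex genes, 21 SAGA complex genes, 84 ribosomal protein genes, 20 neural stem cell identity genes, 69 replication-dependent histone genes or 65 protocadherin genes. In the order given, 14, 13, 56, 12, 29 and 4 of these genes had a shared peak. Of genes with any TRRAP promoter peak, 6.73% had a selected peak. The TIP60, SAGA, neural stem cell, histone and protocadherin lists have too few genes with TRRAP for an absence to set them apart from that share. The absence at the 56 ribosomal protein genes with TRRAP was not tested against it. None of 31 epithelial and other lineage genes and none of 416 olfactory receptor genes had a TRRAP promoter peak of either kind.

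At the boundary of the rule, selected and shared peaks lay a few bases apart. Just inside it were ZNF610 (chr19:52336175-52336410, fold 10.6) and PTPRJ (chr11:47980210-47980358, fold 6.73), whose TRRAP peaks abut a CHD8 peak with a gap of 0 bp, and ABTB2 (chr11:34357821-34357950, fold 7.21) with a gap of 1 bp. Just outside were CNOT6L (chr4:77818908-77819034, fold 6.73), which shares 1 bp with CHD8, and PDZD2 (chr5:31638959-31639094, fold 8.65) and RHOBTB3 (chr5:95731587-95731717, fold 6.73), which share 2 bp each.

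A repeated sequence at the summit, where reads can be placed at the wrong copy, was found in 10 selected peaks (2.1%, 1.15 to 3.82) and in 1.5% of shared peaks. The strongest were at RGPD8 (3 copies, fold 9.12, chr2:112433440-112433642), CYP4F11 (5 copies, fold 9.12, chr19:15933892-15934034) and TAF11L4 (11 copies, fold 7.21, chr5:17521418-17521646). The values at these 3 genes are uncertain for that reason.

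The selection rests on the CHD8 threshold. With only the CHD8 peaks above the median rank of their list, 1760 TRRAP promoter peaks (22.3%) had no overlapping CHD8 peak, and the number of genes with TRRAP and no CHD8 was 1256 in place of 198. Whether CHD8 signal below the threshold is present at the 476 peaks was not tested, since the lists hold called peaks only.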

How the data were processed

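ChIP-seq peak lists for CHD8 and TRRAP (1 library each) were used as deposited by the authors. Per the submitters' processing notes, the tools included HISAT2 and MACS2 2.1.1.20160309 and the build was GRCh38; parameters, control and depth are not given in the sources used here. File titles carry a false discovery rate of 0.001 for TRRAP and of 0.0001 for CHD8. The deposited values are a fold (ratio over background), −log10 p and q, a score equal to 10 times the −log10 q rounded down, and a summit. Folds were compared only within a list.

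Peaks were set against canonical starts of 19970 protein-coding genes (GENCODE 44). Copy number is the median count of 32-base words around the summit in the genome. Statistics were tested on simulated data. Named genes were the strongest single-copy peaks by −log10 q (8 without CHD8 in the promoter, 6 with CHD8 elsewhere, 3 shared), the 4 farthest from CHD8, 3 on each side of the rule, 3 multi-copy peaks and members of 15 gene lists written from general knowledge, leaving out chromosome 8. Genes named after their values were seen are marked. Items that the rule would name but that are withheld are not reported here. The members, lists and tests were chosen with earlier results of these data known. Alternatives varied the overlap rule, window, starts, thresholds, width, word flank and CpG limit. Tools were matplotlib 3.10.9, numba 0.67.0, numpy 2.4.6, pandas 2.3.3, pysam 0.24.0, scipy 1.17.1 and Python 3.11.15.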

Additional observations from a re-analysis of the deposited data

How the results depend on the processing

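Shares below are percentages of TRRAP promoter peaks or of the selected peaks, and differences are selected minus shared peaks in percentage points. Of 135 alternative values of the main results, 100 stayed inside the 95% interval of the reported value (for the gene count, within 1.5 times), 34 moved outside it and 1 fell on the other side of 0 although its reported interval excluded 0. The SP and E-box differences, whose reported intervals include 0, also changed sign in 6 and 2 of 14 alternatives (SP up to 10.2, E-box up to 0.339).

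When a gap of up to 500 bp counted as overlap, the share without CHD8 was 2.84%, CHD8 was elsewhere in the promoter in 11.6% and within 1 kb in 10.7%. The differences were −11.8 for fold above the median, −5.40 for summits within 100 bp of the start, 7.60 for CpG-poor promoters and 4.45 for the SP word. An overlap of at least 50% of the shorter peak gave 9.06%, 72% and 72% for the first 3 values. A window of 500 bp gave 5.22%, 48.5% and 53.4% and an ETS difference of −4.37, and a window of 2500 bp gave 6.71% without CHD8 and 63.0% with CHD8 elsewhere. Starts of all coding transcripts gave 6.82% without CHD8.

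TRRAP peaks above the median rank gave 3.72%, 44.8% and 45.5%, 82 genes with TRRAP and no CHD8, and differences of −9.70 for summits near the start and 10.2 for the SP word. The difference in fold above the median became 0.0609 there, which follows from a restriction that keeps almost only peaks of high fold. CHD8 peaks above the median rank gave 22.3% without CHD8, 20.6% with CHD8 elsewhere, 1256 genes, and differences of −13.5 (fold), −17.2 (width) and −9.29 (summits near the start). Among peaks no wider than the median, the fold difference was −5.16 and the ETS difference −4.49. The ETS difference was −6.71 within 250 bp of the summit. With summits within 250 bp of the start, an alternative added after seeing the data, it was −5.56, and the SP difference was 6.43. The alternatives for the YY1, NRF1 and NFY words, and for features of the peaks without CHD8 in the promoter, were also added after seeing the data. Beyond shifts that follow from a restriction itself, the causes were not tested.

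A soft-masked repeat check was not run, because the reference used was not soft-masked, and the overlap alternatives were not defined for the gene count. No paired analysis was possible because each antibody had 1 library. Read depth was not available for either list, so weak peaks cannot be given a counting error of their own.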
